A study of Homo sapiens with 4 samples.

Results

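Pseudogenes of ribosomal protein genes are copies of the mRNAs for the proteins of the ribosome that have been pasted back into the genome. Of 1003 rows named as such copies in the deposited expression table of 57979 rows, 45 were detected, and these 45 are described here. They were chosen by name (the symbol of a ribosomal protein gene followed by P and a number) and by level, a mean over the 4 libraries above 0.5 FPKM (fragments mapped to a transcript, scaled to its length in kilobases and to library size). That level was the value that selected them and is given as a description.

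Most ribosomal protein pseudogenes are processed pseudogenes. They arose when the machinery of a retrotransposon reverse transcribed a spliced mRNA and inserted the product at a new place, so they lack introns and as a rule the promoter of the source gene. Ribosomal protein genes are among the most strongly transcribed genes of a cell and have left more such copies in the human genome than most gene families. A copy that is still close to its source in sequence is hard to measure in short-read RNA-seq, because a read from the functional mRNA can align to the pseudogene as well.

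The 4 libraries were made from polyadenylated RNA of cells labelled HepG2, a line from a human liver cancer. The WT group was 2 libraries of wild-type cells and the KO group 2 libraries of cells in which TXNDC9, encoding a thioredoxin domain protein, had been targeted with CRISPR-Cas9. By the study's methods, targeting used lentiviral guides. For a western blot, a figure legend of the study describes sorted cells, infected with Cas9 and guide or with vector alone. Whether the sequenced cells of either group were sorted is not given. The labels do not say whether the libraries of a group came from separate cultures, so p-values measure only the spread between these libraries. TXNDC9 itself was 35.1 and 37.3 FPKM in WT and 21.9 and 27.6 FPKM in KO, with a log2 fold change of −0.55 (SE 0.14, limma adjusted p = 0.0171). It was lower in both KO libraries, and the difference was short of 2-fold. Liver markers were absent or near 0 in these cells. None of 16 liver markers had a mean above 1 FPKM, 5 were listed at 0 in every library, and the highest, AFP (alpha-fetoprotein), averaged 0.203 FPKM. Of 12 markers of other cells 5 passed 1 FPKM, led by the fibroblast collagen COL1A1 at 23.1 FPKM, and their summed level was 59.9 and 59.2 FPKM in WT and 47.9 and 45.0 FPKM in KO. The part of these markers in the results below was not tested. The summed FPKM of all rows also differed, at 805816 and 971102 in WT and 535973 and 568279 in KO.

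The 45 pseudogenes were low in level with few exceptions. Their mean FPKM ran from 0.513 to 479 with a median of 1.5, and 5 had a mean above 10 FPKM, 23 between 1 and 10, and 17 below 1. They summed to 943 and 1202 FPKM in WT and to 595 and 655 FPKM in KO. Of that sum, RPL9P9 and RPS2P5 held between 80.2% and 85.4%. The 79 functional ribosomal protein genes, by contrast, summed to between 81849 and 222140 FPKM in a library, and the lowest value of any was 315 FPKM. The pseudogenes thus held 0.567% and 0.541% of the level of the functional genes in WT and 0.727% and 0.742% in KO. In the plot of values by library, the step from the 2 highest pseudogenes to the rest is visible.

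**Figure D1:**
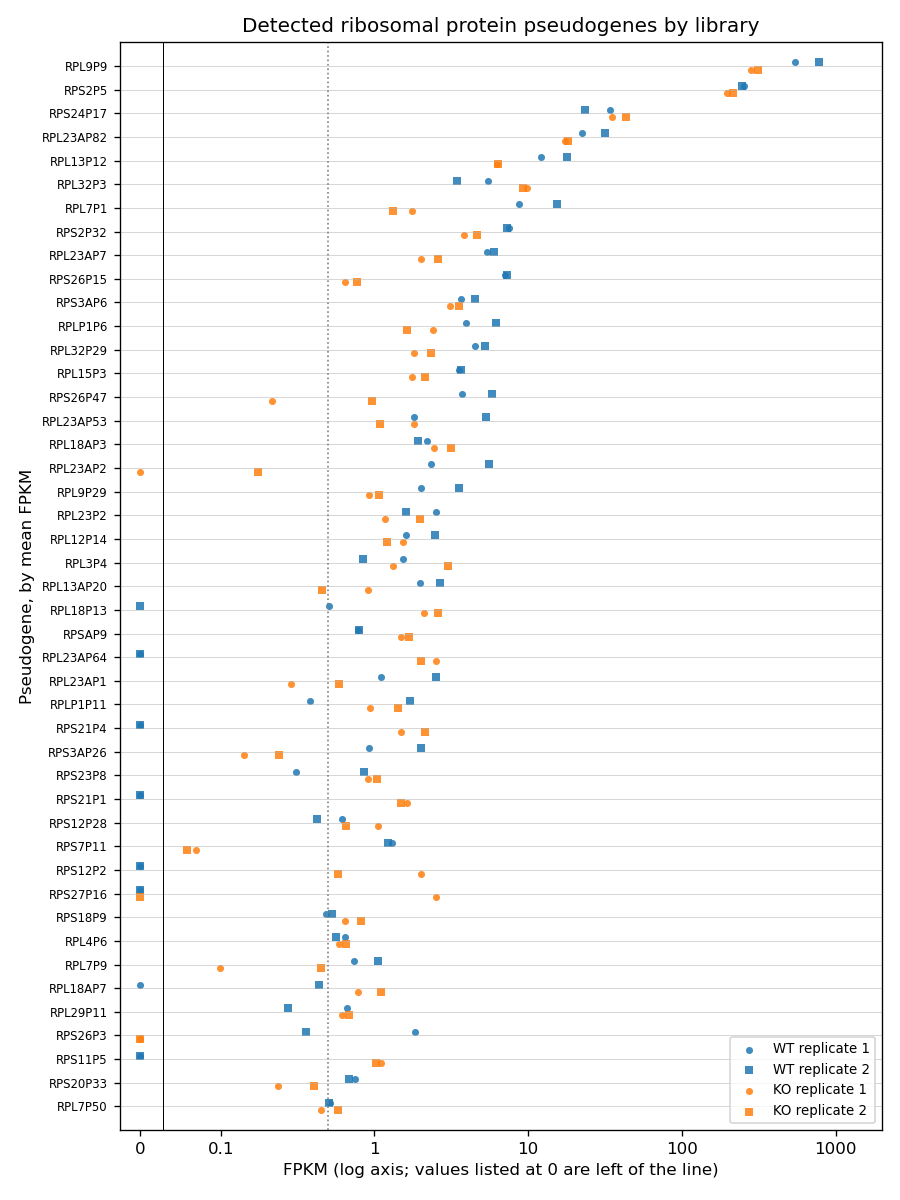
FPKM of the 45 detected ribosomal protein pseudogenes in each of the 4 libraries, on a log axis, ordered by mean FPKM, with values listed at 0 to the left of the solid line and 0.5 FPKM as the dotted line. RPL9P9 and RPS2P5 lie to the right of all others in all 4 libraries, and 10 pseudogenes have a library listed at 0.

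RPL9P9, a copy of the mRNA of the large subunit protein gene RPL9, was the highest. It was at 541 and 780 FPKM in WT and 282 and 312 FPKM in KO. RPL9 itself was at 617 and 920 FPKM in WT and 417 and 452 FPKM in KO. The pseudogene therefore stood at 87.7% and 84.8% of its functional gene in WT and at 67.6% and 69.0% in KO. The other 44 pseudogenes were far lower in this respect, and 39 of the 45 stayed below 1% of the functional gene in every library, with a median over the pseudogenes of 0.110%.

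RPL9P9 differs from RPL9 by 1 base over the whole 576-base coding sequence. The 121 coding bases centred on that base are shown, since they carry the only difference a read over the coding part could show (hg38, RPL9P9 at chr15:82372463-82372583, minus strand, in an intron of the non-coding gene UBE2Q2P2 on the other strand; RPL9 at chr4:39452587-39458931, minus strand). The capital marks the difference, T366C, counted from the A of the start codon with the base of the functional gene first.
RPL9: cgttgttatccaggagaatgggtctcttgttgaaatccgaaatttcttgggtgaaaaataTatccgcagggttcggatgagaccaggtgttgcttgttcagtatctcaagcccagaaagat
RPL9P9: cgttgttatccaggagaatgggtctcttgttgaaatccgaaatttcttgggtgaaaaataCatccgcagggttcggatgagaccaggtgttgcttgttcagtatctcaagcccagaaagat
The change leaves the encoded amino acid as it was. Of the windows of 100 bases that fit in the RPL9P9 transcript, 82.3% occur elsewhere in the genome or in a transcript of the functional gene, so the level of RPL9P9 is uncertain.

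RPS2P5, a copy of the mRNA of the small subunit protein gene RPS2, was at 253 and 247 FPKM in WT and 195.7 and 214 FPKM in KO. Both KO libraries were below both WT libraries. RPS2 was at 4422 and 5339 FPKM in WT and 1713 and 1844 FPKM in KO, so the share of RPS2P5 in its functional gene was 5.73% and 4.62% in WT and 11.4% and 11.6% in KO. Unlike RPL9P9 it carries 11 base differences over 879 coding bases, and 40.1% of its windows of 100 bases are shared. It lies in an intron of the kinase gene TAOK3, on the other strand.

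The next 3 pseudogenes by level were RPS24P17, RPL23AP82 and RPL13P12. RPS24P17 had 34.1 and 23.5 FPKM in WT and 34.9 and 43.2 FPKM in KO. It shares no window of 100 bases and lies in an intron of SLC12A3, a sodium-chloride cotransporter gene, on the same strand. SLC12A3 was at 109 and 112 FPKM in WT and 124 and 136 FPKM in KO. RPL23AP82, at 22.3 and 31.4 FPKM in WT and 17.4 and 18.2 FPKM in KO, is 1 of 2 pseudogenes annotated as unprocessed. The other was RPL32P3, which had 2 exons and was at 5.45 and 3.44 FPKM in WT and 9.87 and 9.27 FPKM in KO.

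The detected copies came from a minority of the possible sources. The table holds pseudogenes of 75 ribosomal protein genes, and 28 of these genes had a detected one, 26 pseudogenes for the large and 19 for the small ribosomal subunit. RPL23A had the most, with 6 detected of 93, followed by RPL7 with 3 of 61 and RPS26 with 3 of 24. For RPS21 and RPLP1, 2 of 3 were detected each. RPL21, which was chosen after its values were seen, had 59 pseudogenes and none detected, at a mean of 1512 FPKM for the functional gene.

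The detected pseudogenes differed widely in how close they are to the source mRNA. All 45 were found in the GENCODE annotation of hg38 by Ensembl identifier, 36 as processed, 7 as transcribed processed and 2 as transcribed unprocessed pseudogenes, on 21 chromosomes, and 43 had a single exon. The median transcript was 469 bases long, and the range was 201 to 1304. Their median identity to the transcript of the functional gene was 94.0%, with quartiles of 90.5% and 99% and a range from 76.3% to 99.8%. The 955 annotated pseudogenes that were not detected had a median of 88.8%, with quartiles of 83.2% and 92.9%. At an identity of 98% or more were 15 of 45 detected (33.3%) and 35 of 955 undetected (3.66%) pseudogenes, so that 15 of the 50 closest copies were detected, against 4.49% of all 1003. An exon of another gene overlapped 14 detected (31.1%) and 65 undetected (6.81%) pseudogenes, whereas an intron alone held 18 of 45 and 443 (46.4%). Whether reads of the functional genes or of the overlapping genes made up these levels was not tested.

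**Figure D2:**
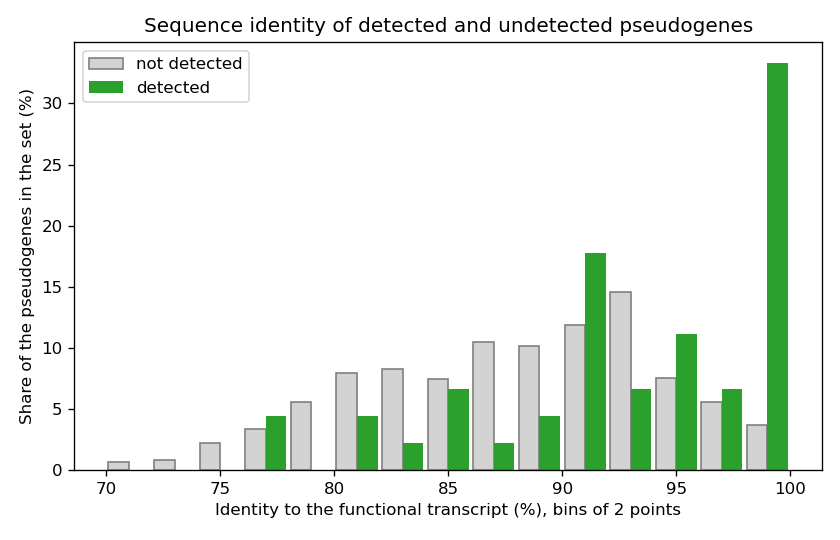
Share of the 45 detected and of the 955 annotated undetected ribosomal protein pseudogenes (y axis, percent of the set) by identity to the functional transcript (x axis, bins of 2 percentage points). The bin of 98% and above holds 33.3% of the detected and 3.66% of the undetected pseudogenes.

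The coding part of the source was complete and without a gap in 13 of the 45. In 12 of these the frame was open from the start codon, with no stop codon inside, and RPSAP9 had 1 stop codon. RPL9P9 was the only one of the 13 with no amino acid change.

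The comparison of KO with WT asked how RNA levels changed when TXNDC9 was targeted. A gene passed the test here at a limma adjusted p below 0.01 over 14817 features together with at least a 2-fold change, and log2 fold changes are on the log2(FPKM + 0.1) scale, which understates the change of low genes. Of the 45 pseudogenes 9 fell and 5 rose. Over all features tested, 13.8% fell and 13.5% rose, beside 20.0% and 11.1% of the pseudogenes. Features with a transcript under 1000 bases, as most of the pseudogenes have, fell in 26.2% and rose in 8.54% of 2437. Of the 5 risers 4 were listed at 0 in both WT libraries and passed the level of 0.5 FPKM through KO alone. Of the 9 fallers 2, RPL23AP2 and RPS7P11, passed it through WT alone. Of the 29 pseudogenes with a mean above 0.5 FPKM in both groups, 7 fell (24.1%) and 1 rose (3.45%), beside 14.3% and 12.9% of the 13616 features of that kind.

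The counts moved with the scaling of the libraries. When each library was rescaled to the same sum, 4 pseudogenes fell (8.89%) and 9 rose (20.0%), beside 3.12% and 31.1% of all features. When each was centred on its median, 15 fell (33.3%) and 4 rose (8.89%), beside 19.7% and 9.41%. When values were corrected for transcript length and GC content, 7 fell (15.6%) and 5 rose (11.1%), beside 7.56% and 5.90%. The median log2 fold change of the pseudogenes was −0.38 beside −0.06 over all features, and after rescaling 0.27 beside 0.60. After the correction for length and GC content it was −0.12 beside −0.06, so the gap to all features went from 0.31 below to 0.05 below. Without the 7 pseudogenes listed at 0 in both libraries of a group the median was −0.69.

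In 23 pseudogenes both KO libraries were below both WT libraries, and in 14 both were above. Over all features this held for 44.0% and 40.0%. A fit without either KO library took its spread from the WT libraries alone, so it could not check the calls. Leaving out KO replicate 1 left 0 calls among the pseudogenes and 0 among all features, with 19 pseudogenes and 7200 features at an unadjusted limma p below 0.05. Leaving out KO replicate 2 likewise left 0 calls, with 25 pseudogenes and 7397 features at that level. Without WT replicate 2 the median log2 fold change of the pseudogenes was −0.31, beside −0.02 over all features. Without WT replicate 1 it was −0.53, beside −0.11.

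Of the 14 pseudogenes that passed the test, 6 also passed it in the same direction under each of 11 alternative settings in which they were tested, those without a KO library not counted. They were RPS26P15, RPL7P1, RPS7P11, RPL23AP64, RPS21P1 and RPS21P4. Of these, RPS7P11 did not pass with the correction for length and GC content and a replicate block together (adjusted p = 0.0127). RPL23AP64, RPS21P1 and RPS21P4 had passed the level of 0.5 FPKM through KO alone and RPS7P11 through WT alone. The direction of change of these was tied to the level that selected them, so keeping it across settings is no support. The other 8 of the 14 lost the call under at least 1 setting. RPS26P47 lost it under 7, RPL32P3 under 6, RPL13P12 under 5 and RPL9P9 and RPL32P29 under 4. RPL23AP2 and RPL23AP7 lost it under 3 and RPS11P5 under 1. These counts leave out the correction together with the replicate block. With it, RPS11P5 (adjusted p = 0.0103), RPL13P12 and RPL32P3 lost the call too.

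The functional genes behaved more evenly. Of 79, 48 fell and 0 rose in limma, also with 0 higher at an unadjusted p below 0.05, and their median log2 fold change was −1.11 (−0.43 after rescaling, with 13 lower and 1 higher). Other processed pseudogenes showed the opposite balance to that of the functional genes. Of 258 tested, 21 fell and 51 rose, with a median of 0.50. Protein-coding genes with a transcript under 1000 bases had a median of −1.12, with 398 of 765 lower and 10 higher. The median transcript was 469 bases for the ribosomal protein pseudogenes and 510 for the other processed pseudogenes. The part of length in these differences was not tested.

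Pseudogenes did not move with their functional genes one for one. Over the 45 pairs, the log2 fold changes of pseudogene and functional gene had a Spearman correlation of 0.03 and a Pearson correlation of 0.04, as a description over pairs that share functional genes, libraries and sequence. The level of the pseudogene as a percentage of its functional gene was higher in both KO libraries than in both WT libraries for 28 pseudogenes, lower for 11, and overlapping for 6. These counts and correlations include 9 pseudogenes that passed 0.5 FPKM only through KO and 7 only through WT. The direction of change of these 16 was tied to the level that selected them. Over the 29 above 0.5 FPKM in both groups, the median log2 fold change was −0.53. In the plot against the functional genes, points are spread above and below the line of equal change.

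**Figure D3:**
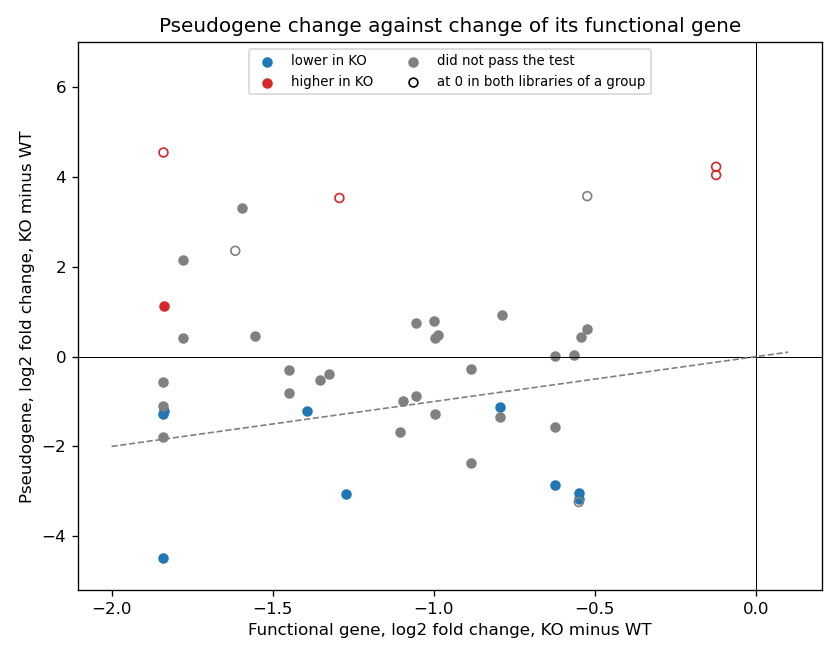
Log2 fold change (KO minus WT) of each of the 45 pseudogenes (y axis) against that of its functional gene (x axis), with the dashed line at equal change. Functional genes lie between −1.84 and −0.12 and pseudogenes on both sides of 0, and the open points, pseudogenes at 0 in both libraries of a group, have heights that depend on the constant of 0.1 FPKM.

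The pseudogenes of RPS26, a small subunit protein gene, were among those with the lowest fold changes. RPS26P15 was at 7.10 and 7.25 FPKM in WT and 0.648 and 0.767 FPKM in KO. It fell, with a mean 10.1-fold higher in WT and a log2 fold change of −3.18 (SE 0.18, adjusted p = 0.000754). RPS26P47 was at 3.68 and 5.85 FPKM in WT and 0.215 and 0.958 FPKM in KO, and fell as well (log2 fold change −3.04, SE 0.60, adjusted p = 0.00757). The call was lost, among other settings, without WT replicate 1 (adjusted p = 0.0251) and without WT replicate 2 (adjusted p = 0.0499). RPS26P3 was at 1.83 and 0.361 FPKM in WT and was listed at 0 in both KO libraries, which did not pass the test (adjusted p = 0.0252). RPS26 was at 610 and 835 FPKM in WT and 474 and 501 FPKM in KO. Its log2 fold change of −0.55 (SE 0.19, adjusted p = 0.0521) did not pass the test. As a share of RPS26, RPS26P15 was 1.16% and 0.868% in WT and 0.137% and 0.153% in KO.

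The 3 copies hold the whole coding part of RPS26, 30.5% of its annotated transcript, and each differs from it at 2 or 3 of 345 coding bases, at different places. The coding bases 43 to 297 hold all of these differences and are shown for that reason (hg38; RPS26 at chr12:56041351-56044697, plus strand; RPS26P15 at chr1:58056184-58056438, minus strand; RPS26P47 at chr13:100539952-100540206, minus strand; RPS26P3 at chr9:9090940-9091194, plus strand). Capitals mark the bases of a copy that differ, and in RPS26 every base that differs in any copy.
RPS26: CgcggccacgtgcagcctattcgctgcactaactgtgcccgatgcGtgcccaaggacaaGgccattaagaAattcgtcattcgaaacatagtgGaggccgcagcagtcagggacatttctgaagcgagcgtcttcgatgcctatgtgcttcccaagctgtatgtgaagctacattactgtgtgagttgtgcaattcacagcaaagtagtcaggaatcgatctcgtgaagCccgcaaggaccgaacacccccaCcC
RPS26P15: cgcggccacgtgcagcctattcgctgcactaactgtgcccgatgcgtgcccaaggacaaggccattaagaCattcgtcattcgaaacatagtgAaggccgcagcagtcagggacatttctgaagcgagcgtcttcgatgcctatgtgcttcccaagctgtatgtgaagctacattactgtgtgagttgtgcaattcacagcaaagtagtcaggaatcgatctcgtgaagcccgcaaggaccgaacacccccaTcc
RPS26P47: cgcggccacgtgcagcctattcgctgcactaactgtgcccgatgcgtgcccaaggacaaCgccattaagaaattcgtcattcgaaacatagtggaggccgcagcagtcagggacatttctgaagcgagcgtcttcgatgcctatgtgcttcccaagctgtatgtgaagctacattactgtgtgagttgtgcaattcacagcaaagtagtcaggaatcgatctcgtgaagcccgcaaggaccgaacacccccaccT
RPS26P3: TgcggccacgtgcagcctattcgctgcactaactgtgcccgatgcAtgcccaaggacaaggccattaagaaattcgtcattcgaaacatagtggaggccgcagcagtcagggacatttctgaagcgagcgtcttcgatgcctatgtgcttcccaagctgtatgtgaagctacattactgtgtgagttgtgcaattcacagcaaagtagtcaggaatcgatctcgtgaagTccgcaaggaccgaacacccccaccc
The differences are A113C, G136A and C295T in RPS26P15, G102C and C297T in RPS26P47, and C43T, G88A and C272T in RPS26P3. Of their windows of 100 bases, 28.9%, 45.0% and 45.4% in this order are shared. All 3 lie in introns. RPS26P15 lies in DAB1, which was listed at 0 in every library, on the same strand. RPS26P3 lies in PTPRD, which reached no more than 0.0159 FPKM, on the other strand. RPS26P47 lies in GGACT, at 0.831 and 1.39 FPKM in WT and 1.85 and 1.91 FPKM in KO, on the same strand.

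Of the 3 copies of RPL7, a large subunit protein gene, 1 fell. RPL7P1 was at 8.72 and 15.3 FPKM in WT and 1.75 and 1.32 FPKM in KO. It fell (log2 fold change −2.85, SE 0.30, adjusted p = 0.00114), with a mean 7.85-fold higher in WT. RPL7 was at 1254 and 1633 FPKM in WT and 919 and 938 FPKM in KO, a log2 fold change of −0.62 (SE 0.20, adjusted p = 0.0374). RPL7P1 has 3 differences over 744 coding bases and lies in an intron of CSF1R, the receptor gene of a macrophage growth factor, which was between 0.274 and 0.312 FPKM. RPL7P9, with 2 differences, was at 0.737 and 1.05 FPKM in WT and 0.0990 and 0.452 FPKM in KO, and did not pass the test (adjusted p = 0.0736). RPL7P50, at 91.2% identity, was at 0.514 and 0.505 FPKM in WT and 0.449 and 0.582 FPKM in KO, so the groups overlapped.

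Of the 6 copies of RPL23A, a large subunit protein gene, 2 fell, 1 rose and 3 did not pass the test. RPL23A itself fell from 1592 and 2131 FPKM in WT to 501 and 528 FPKM in KO (log2 fold change −1.84, SE 0.20, adjusted p = 0.00123). RPL23AP2 was at 2.34 and 5.52 FPKM in WT and at 0 and 0.175 FPKM in KO and fell (log2 fold change −4.48, SE 0.66, adjusted p = 0.00282). RPL23AP7 fell as well, from 5.38 and 6.04 FPKM to 2.01 and 2.58 FPKM (log2 fold change −1.28, SE 0.18, adjusted p = 0.00227). RPL23AP64 rose, from a value listed at 0 in both WT libraries to 2.50 and 2.0 FPKM in KO (adjusted p = 0.00112), and it passed the level of 0.5 FPKM through KO alone. RPL23AP7 was no longer called after rescaling (−0.63, adjusted p = 0.0279), and neither it nor RPL23AP2 without WT replicate 2 (adjusted p = 0.0143 and 0.0160). RPL23AP82, RPL23AP1 and RPL23AP53 did not pass the test, with log2 fold changes of −0.57, −1.78 and −1.10. Of the windows of 100 bases, 54.3% in RPL23AP7 and 55.9% in RPL23AP82 occur elsewhere in the genome, and 0% in a transcript of RPL23A. RPL23AP82 also overlaps, on the same strand, an exon of a non-coding gene that the annotation names RPL23AP7 too.

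A stretch of the coding sequence shows how unlike RPL23AP2 and RPL23AP64 are (a run of 72 coding bases without a gap in either, hg38; RPL23A at chr17:28719985-28724359, plus strand; RPL23AP2 at chr19:15611764-15611835, plus strand; RPL23AP64 at chr11:119003271-119003342, minus strand). Capitals mark differences from RPL23A in the same way.
RPL23A: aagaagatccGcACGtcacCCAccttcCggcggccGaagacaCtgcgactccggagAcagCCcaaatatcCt
RPL23AP2: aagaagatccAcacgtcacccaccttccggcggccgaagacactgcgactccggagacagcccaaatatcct
RPL23AP64: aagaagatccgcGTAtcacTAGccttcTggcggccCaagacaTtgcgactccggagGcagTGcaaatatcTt
RPL23AP2 differs at 1 and RPL23AP64 at 13 of these 72 bases. Over the transcripts, identity to RPL23A was 97.4% for RPL23AP2 and 85.1% for RPL23AP64, and 29.2% and 0% of their windows of 100 bases are shared. RPL23AP64 lies in an intron of CENATAC, a splicing factor gene on the other strand, which fell from 41.9 and 51.3 FPKM in WT to 21.8 and 21.0 FPKM in KO.

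The remaining fallers were RPS7P11, RPL32P29, RPL13P12 and RPL9P9. RPS7P11 was at 1.31 and 1.23 FPKM in WT and 0.0690 and 0.0600 FPKM in KO, and its functional gene RPS7 also fell (log2 fold change −1.27, SE 0.21, adjusted p = 0.00408). Its host NSF, a membrane fusion ATPase gene on the other strand, was at 14.5 and 12.8 FPKM in WT and 25.2 and 28.1 FPKM in KO. RPL13P12 fell from 12.1 and 17.8 FPKM to 6.31 and 6.33 FPKM (log2 fold change −1.20), and RPL13 had −1.39. Its call was lost after rescaling (−0.53, adjusted p = 0.0244), with the correction for length and GC content (−0.58, adjusted p = 0.0184) and without WT replicate 2 (−0.93). RPL32P29 fell from 4.53 and 5.26 FPKM to 1.80 and 2.32 FPKM (log2 fold change −1.22), and RPL32 had −1.84. After rescaling it was at −0.56 (adjusted p = 0.0457) and no longer called. RPL32P29 overlaps an exon of the ribosomal protein gene RPS29 on the same strand, which was at 1771 and 2337 FPKM in WT and 2783 and 2800 FPKM in KO. For RPL9P9 the log2 fold change was −1.13 (SE 0.21, adjusted p = 0.00590). The call was lost after rescaling (−0.45) and without WT replicate 2 (−0.87), both short of 2-fold, and without a filter on low values (adjusted p = 0.0245) or the trend in the variance (adjusted p = 0.0164).

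The risers were RPL32P3, RPS11P5, RPS21P1, RPS21P4 and RPL23AP64. RPL32P3 was the only one of them above 0 in WT, and its log2 fold change was 1.12 (SE 0.23, adjusted p = 0.00811), while RPL32 fell. The call was lost after centring (0.92, adjusted p = 0.0221), with the correction for length and GC content (0.87, adjusted p = 0.0412), with a constant of 1 FPKM (0.98), without WT replicate 2 (0.80), without a filter (adjusted p = 0.0297) and without the trend (adjusted p = 0.0234). RPS11P5 was listed at 0 in both WT libraries and at 1.10 and 1.02 FPKM in KO. RPS21P1 was at 0 in WT and at 1.62 and 1.49 FPKM in KO, and RPS21P4 at 0 in WT and at 1.48 and 2.12 FPKM in KO. Their functional gene RPS21 was at 1996 and 3021 FPKM in WT and 2197 and 2313 FPKM in KO, so its groups overlapped. RPS12P2 and RPS27P16 were also at 0 in both WT libraries and did not pass the test, RPS27P16 with 2.53 and 0 FPKM in KO. In all, 6 of 45 pseudogenes (13.3%) were at 0 in both WT libraries and 1 in both KO libraries, against 0.587% and 0.324% of all features tested and 7.36% and 3.10% of the other processed pseudogenes. A gene at 0 in one group passed the level of 0.5 FPKM only through the other, so these could enter only with a difference.

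RPS21P1 and RPS21P4, which both rose, are shown beside RPS21 because they are diverged to different degrees (a run from the start codon without a gap in either, hg38; RPS21 at chr20:62387103-62388520, plus strand; RPS21P1 at chr1:235432985-235433159, plus strand; RPS21P4 at chr4:16256381-16256555, minus strand). Capitals mark differences as before.
RPS21: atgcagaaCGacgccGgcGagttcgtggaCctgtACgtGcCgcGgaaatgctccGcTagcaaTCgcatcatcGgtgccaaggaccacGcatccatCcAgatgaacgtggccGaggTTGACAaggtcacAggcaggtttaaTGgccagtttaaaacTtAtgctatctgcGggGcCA
RPS21P1: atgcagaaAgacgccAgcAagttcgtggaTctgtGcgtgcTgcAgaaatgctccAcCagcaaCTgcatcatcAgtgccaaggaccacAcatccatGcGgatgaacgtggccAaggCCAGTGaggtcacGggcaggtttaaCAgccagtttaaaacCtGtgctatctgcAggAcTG
RPS21P4: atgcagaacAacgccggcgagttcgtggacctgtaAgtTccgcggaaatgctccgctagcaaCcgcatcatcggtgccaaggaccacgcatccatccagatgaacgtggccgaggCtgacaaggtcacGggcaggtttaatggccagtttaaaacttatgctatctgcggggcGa
RPS21P1 differs at 31 of the bases shown and RPS21P4 at 7, and neither shares a window of 100 bases with another place. RPS21P1 overlaps exons of TBCE, a tubulin folding cofactor gene, and of the protein-coding gene ENSG00000285053, both on the same strand. Neither was found in the expression data by its identifier in the annotation, so their levels are not given. RPS21P4 overlaps an exon of TAPT1-AS1, a non-coding gene on the other strand at 0.709 and 0.954 FPKM in WT and 1.37 and 1.68 FPKM in KO. RPS11P5 overlaps an exon of GOLGA3, a Golgi protein gene on the other strand, at 10.0 and 11.2 FPKM in WT and 19.0 and 21.4 FPKM in KO. Whether the counting used strand is not given in the sources used here, so reads of the 2 strands cannot be told apart.

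Of the other pseudogenes with high levels, close sequence or large differences, none passed the test. RPS2P32 was at 7.51 and 7.26 FPKM in WT and 3.82 and 4.62 FPKM in KO, a log2 fold change of −0.80 (SE 0.14, adjusted p = 0.00513) that was short of 2-fold. RPL15P3, with 3 differences over 612 coding bases, was at 3.56 and 3.68 FPKM in WT and 1.77 and 2.12 FPKM in KO, and was also short of 2-fold at −0.87. RPL15, its functional gene, fell with −1.06, so copy and source lay close together here. RPL3P4, a partial copy of RPL3 with 99.5% identity, was at 1.52 and 0.845 FPKM in WT and 1.32 and 3.01 FPKM in KO, and its groups overlapped. RPL18P13 was at 0.507 and 0 FPKM in WT and 2.09 and 2.60 FPKM in KO (adjusted p = 0.0197), while RPL18 fell (log2 fold change −1.59).

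How much a low value weighs depends on length, because 1 fragment is worth more FPKM in a short transcript. The table holds no counts and the depth is unknown. As a yardstick, the lower quartile of the values above 0 was taken over other single-exon features within 5% of the length of a pseudogene. For RPS21P1 it was 0.827 and 0.964 FPKM in WT and 0.914 and 0.581 FPKM in KO, so its KO values of 1.62 and 1.49 FPKM were 1.77 and 2.56 times such a low value. RPS21P4 stood at 1.64 and 3.65 times and RPS27P16, in the library where it was above 0, at 1.06 times. RPL23AP64 was at 11.8 and 15 times and RPS11P5 at 7.41 and 8.54 times in KO. On the side of the fallers, RPS26P15 stood at 24.9 and 17.9 times in WT and 2.39 and 3.28 times in KO, and RPS7P11 at 12.5 and 7.58 times in WT and 0.655 and 0.684 times in KO. Over the 45, 39 exceeded 5 times this level in at least 1 library, and 6 did not.

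The pseudogenes were also counted by whether they share sequence with other places, with no test of the difference. With at least 1 shared window of 100 bases were 24 pseudogenes, and 8 of them fell (33.3%) and 1 rose (4.17%). Without one were 21, and 1 fell (4.76%) and 4 rose (19.0%). Over all features tested 13.8% fell and 13.5% rose, and of those with a transcript under 1000 bases 26.2% and 8.54%. The riser with a shared window, RPS11P5, shares 0.26% of its windows and was at 0 in both WT libraries. Of the 4 risers without one, 3 (RPL23AP64, RPS21P1 and RPS21P4) were at 0 in both WT libraries. RPL32P3 was the other. The split depended on window length. For windows of 50 bases, 37 pseudogenes had a shared one and 8 had none. RPL23AP64 and RPS21P4 then shared 2.59% and 1.51% of their windows, while RPL32P3, RPS21P1 and the faller RPL32P29 shared 0%. Medians were taken without pseudogenes at 0 in both libraries of a group. The median log2 fold change was −1.13 over 21 with shared windows of 100 bases and 0.01 over 17 without. The median for the functional genes was −1.03 and −1.32 in the same order. Across the 45, the Spearman correlation of the shared share with the log2 fold change was −0.34, given as a description, since level, length and source gene differ along with it. The counts of fallers and risers, this correlation and the medians include some pseudogenes that passed 0.5 FPKM only through WT or only through KO. The direction of change of those was tied to the level that selected them. The plot of change against shared windows shows that all pseudogenes below −2 share part of their windows. Of these, RPL23AP2, RPS7P11, RPS3AP26 and RPS26P3 passed 0.5 FPKM through WT alone and could enter only with a fall.

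**Figure D4:**
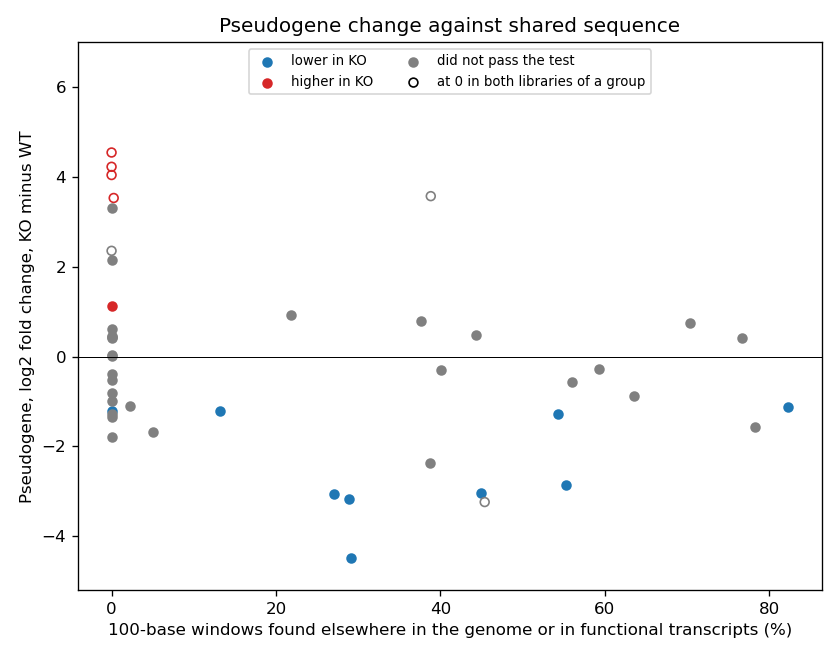
Log2 fold change (KO minus WT) of each of the 45 pseudogenes (y axis) against the percentage of its 100-base windows that occur elsewhere in the genome or in functional transcripts (x axis). Of the 9 fallers 8 have shared windows, and of the 5 risers 4 have none. Among the 45, 24 have shared windows and 21 have none. For windows of 50 bases, 37 have shared windows and 8 have none. RPL23AP2, RPS7P11 and all risers but RPL32P3 passed 0.5 FPKM through WT or KO alone. Over all features 13.8% fell and 13.5% rose. Open points are at 0 in both libraries of a group.

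At the level that defined detection, the members just inside were RPL7P50 with a mean of 0.513 FPKM, RPS20P33 with 0.519 and RPS11P5 with 0.530. Just outside were RPL36AP33 with 0.480, RPL36AP43 with 0.475 and RPL23AP20 with 0.472. RPL36AP43 was at 0 in both WT libraries and at 0.693 and 1.21 FPKM in KO, the same arrangement as in RPS11P5. Of the 45, 29 had a mean above 0.5 FPKM in both groups. Only the KO mean passed 0.5 FPKM in 9 and only the WT mean in 7. Since the cells were measured in bulk, fewer cells with an RNA and less of it per cell cannot be told apart.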

How the data were processed

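The authors mapped reads to hg38 with TopHat2 and Ensembl annotation and deposited, for every gene in each library, an FPKM from Cuffdiff and Cufflinks. Tool versions, the library normalization, the treatment of reads with several alignments and strand are not given in the sources used here. The authors' deposited columns of group averages, fold changes, p-values and q-values were not used. The table repeated each identifier on 4 lines and listed it out of step with the gene symbols, so the 57979 distinct identifiers were matched in order to the 57979 lines with values. Replicates are as in the labels, 2 WT and 2 KO. All features with a mean above 0.5 FPKM (14817) entered limma 3.58.1 in R 4.3.3 on log2(FPKM + 0.1), with a trend in the prior variance, two-sided, with Benjamini-Hochberg adjustment. With 2 libraries against 2, an exact permutation p could not be below 0.33. The fit was tested on simulated data. Sequences and positions came from GENCODE 44 on hg38. Identity was taken from local alignment to the transcript of the functional gene (match 1, mismatch −2, gap opening −4, gap extension −1), where the functional gene is the symbol without its final P and number. The pseudogenes and gene lists were chosen with earlier results of these data known. Named genes were the 10 with the highest mean, the 6 lowest and 6 highest log2 fold changes, the 6 with the highest identity and the 3 on each side of 0.5 FPKM, with their functional genes. Others were named after their values were seen. The results of 1 functional gene and its closest copy are not reported here. Alternatives were other constants, filters, scalings and thresholds, a replicate block, a loess correction for length and GC content (span 0.3) and leaving out each library. The correction together with the replicate block was chosen after seeing the data.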

Additional observations from a re-analysis of the deposited data

How the results depend on the processing

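Among the ribosomal protein pseudogenes 9 fell (20.0%) and 5 rose (11.1%), beside 13.8% and 13.5% of all features. The count of fallers was 3 without a filter on low values (6.67%, beside 5.37% of all features). It was 4 after rescaling to TPM (8.89% beside 3.12%). After centring it was 15 (33.3% beside 19.7%), and at an adjusted p below 0.05 also 15 (33.3% beside 15.9%). The count of risers was 2 with a mean above 1 FPKM (7.14% beside 14.2%) and 9 after rescaling (20.0% beside 31.1%). Deviations of libraries with the same replicate number correlated at −0.0492. With 2 libraries per group this cannot settle whether the numbers paired the libraries. With the replicate block 14 pseudogenes fell (31.1%) and 7 rose (15.6%), beside 14.9% and 14.2% of all features. Corrected for length and GC together with the replicate block, 3 rose (6.67%) and the median of the pseudogenes was −0.12. All features then gave 1117 lower (7.63%) and 838 higher (5.72%). Leaving out a library gave 0 to 10 fallers and 0 to 6 risers among the pseudogenes, 0 to 2494 lower and 0 to 2178 higher among all features, and 0 to 63 lower functional genes. In each case 0 came from leaving out KO replicate 1 or KO replicate 2, with the lone library assumed to vary like the other group and a smallest limma adjusted p of 0.0490 and 0.0467. Over all features, 2049 fell and 1998 rose, against 463 and 4614 after rescaling and 1107 and 864 after the correction for length and GC. The functional genes, 48 lower and 0 higher, gave 6 lower without a filter and 13 lower and 1 higher after rescaling. The median log2 fold change of the pseudogenes, −0.38, was −0.83 with a mean above 1 FPKM, 0.27 after rescaling, −0.58 after centring and −0.12 after the correction. The KO to WT ratio of their summed FPKM, 0.582, was 0.939 after rescaling. With a mean above 1 FPKM 28 pseudogenes were detected, and with 0.5 FPKM in each library 22. Directions turned for RPL23AP82 (0.11 after rescaling), for RPS2P5 (0.39 after rescaling, 0.51 corrected for length and GC, with or without the replicate block), for RPS2P32 (0.0089 with the same correction, with or without the replicate block) and for RPL7P50, which was near 0 (0.01) and gave −0.20 after centring and −0.15 to 0.16 when a library was left out. The causes were not tested. Depth could not be read from FPKM, so values near that of 1 fragment cannot be told from 0.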
